A study of Mus musculus with 908 samples.

Results

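The stefins and cystatins described here are 6 of the 46517 gene rows in the deposited tables. They are the stefin A genes Stfa1, Stfa2 and Stfa3, the stefin B gene Cstb, and the secreted cystatins Cst3 (cystatin C) and Cst6 (cystatin E/M). The genes were taken by symbol, and the set had been chosen on earlier TPM values of the same cells. Their differences between groups are therefore given as descriptions, without a test.

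The cells came from mouse skin squamous cell carcinomas driven by an inducible Hras transgene, and each was profiled on its own by Smart-seq2, a full-length single-cell RNA-seq method. Tumours were taken before or after adoptive cell transfer (ACT), an immunotherapy in which T cells are infused. Of 908 deposited libraries, those that passed the filters below and are not repeats of another library are used.

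The cells after transfer (87 libraries on plate OT2 and 90 on OT_B) came from the strain TRE-OVA;TRE-HrasG12V:PGK-rtTA3P2AmCherry, and mCherry was the only positive marker of their sort. The other groups were taken before ACT from the strain TRE-HrasG12V;SBE-mCherry-PGK-rtTA3, in which mCherry sits behind an SBE (SMAD-binding element) sequence that reads out TGF-beta signalling. The reporter-positive cells (73 libraries on plate CSC1 and 32 on CSC2) were mCherry+ and also integrin α6+, CD44+ and CD34+. The CD44+ reporter-negative cells (15 libraries) were α6+ and CD44+ but negative for mCherry and CD34. The α6+ CD44-negative cells (91 libraries) lacked CD44, CD34 and mCherry, and the α6-negative cells (43 libraries) lacked all of these markers and α6 as well. Every gate also removed cells with CD31, CD45, CD117 or CD140a. All 5 groups carried the HrasG12V transgene behind a TRE promoter, which rtTA3 switches on, with rtTA3 behind the PGK promoter, which is active in most cell types. All mice were 60 to 90 days old, and the labels give their sex as mixed. Because strain, reporter, gate and treatment all change between the cells after transfer and the others, their parts in a difference cannot be told apart.

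Cystatins block papain-like cysteine proteases, mainly lysosomal cathepsins, by inserting a wedge of the inhibitor into the active site. Stefins are the intracellular type, small proteins without a signal peptide, whereas Cst3 and Cst6 are secreted. In the epidermis stefin A is part of the cornified layer and Cst6, through its action on cathepsin L and legumain, takes part in cornification. Mice carry a cluster of duplicated stefin A genes, some of which are also known from neutrophils.

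The labels name no animal for any cell, so each group counts as 1 sample. No p-value, standard error or SD over animals is given, and the spread shown is between cells. Values are TPM, transcript abundances scaled to a fixed total per library and for transcript length, which keep no read depth. Used libraries had at least 2000 genes at 1 TPM or more. The median was 6657 genes in cells after transfer, 7760 in reporter-positive, 7222 in CD44+ reporter-negative, 6810 in α6+ CD44-negative and 5521 in α6-negative cells. A keratinocyte marker list scored highest in every cell after transfer, every reporter-positive cell, 12 of 15 CD44+ reporter-negative cells and every α6+ CD44-negative cell. It led in 26 of 43 α6-negative cells, where fibroblast markers led in another 15 and pericyte or muscle markers in 2. A group mean mixes how many cells have a transcript with how much each has, so the share of cells at 1 TPM or more (detected) is given beside it.

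Some libraries went against their labels. Plates OT_C and OT_D were labelled as cells after transfer, but 71 wells of OT_C matched the same wells of reporter-positive plate CSC1 as mutual best matches. Likewise, 29 wells of OT_D matched those of reporter-positive plate CSC2, and 14 matched those of the CD44+ reporter-negative plate. The median correlation of same wells was 0.921, 0.915 and 0.933 in these 3 plate pairs, against 0.551 to 0.698 for different wells. Plates OT1 and OT_A, also labelled after transfer, repeated OT_B and OT2, with same-well medians of 0.828 and 0.901. In 3 cases different wells of 1 used plate matched each other, with correlations of 0.891 to 0.923, and leaving out 1 of each pair changed only 1 count given below, by adding Cst3 to the members lower in reporter-positive than in α6+ CD44-negative cells. OT_C, OT_D, OT1 and OT_A were left out, and values with them are given beside the results they move. Sex-linked transcripts also differed between groups: 96.05% of cells after transfer, 94.3% of reporter-positive cells and 90.7% of α6-negative cells had Y-linked transcripts without Xist, and 12 of 15 CD44+ reporter-negative cells had Xist alone. The α6+ CD44-negative cells held 42 with Xist alone and 44 with Y-linked transcripts alone.

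Stfa1, Stfa2 and Stfa3 are neighbours on mouse chromosome 16, and their promoters are shown because they are alike in sequence although the genes did not share 1 pattern across the groups. The lines below give a 30-base window of each promoter, 5′ to 3′ on the gene's strand, from the RefSeq promoter table of GRCm38.p6. Counted from the RefSeq start site, the windows run from −42 to −13 in Stfa1, −41 to −12 in Stfa2 and −43 to −14 in Stfa3. Capitals mark the run TTTAAAA, found where many promoters carry a TATA box, which starts 30, 29 and 31 bases before the start in Stfa1, Stfa2 and Stfa3.
Stfa1 (chr16:36277106-36277135, plus strand): ctttcggataccTTTAAAAccctgagtctc
Stfa2 (chr16:36408375-36408404, minus strand): cttacagaaaccTTTAAAAccctgagtctc
Stfa3 (chr16:36455406-36455435, minus strand): ttacagataaccTTTAAAAccccgagtctc

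The 250 bases before the start were 81.03% identical between Stfa1 and Stfa2, 83.5% between Stfa1 and Stfa3 and 80.2% between Stfa2 and Stfa3. Against Cst3 the 3 stefin A promoters were 42.2% to 44.9% identical. TTTAAAA was present in 8.10% of all 32851 promoters on either strand and in 5.4% on the gene's own strand, and the Cst3 promoter did not hold it. The Cst3 promoter was 59.6% G and C with 8 CpG pairs, and the stefin A promoters were 48.4% to 49.6% G and C with 0 to 3 CpG pairs, against medians of 52.4% and 6 over all promoters. The AP-1 motif TGANTCA and the SMAD motif GTCTAGAC, searched on both strands, were in none of the 4 promoters, and all promoters held them in 6.75% and 0.167% of cases. Only the full SMAD motif was searched. Its first part, GTCT, occurs in the windows of Stfa1, Stfa2 and Stfa3 shown above, and how many promoters hold that part was not counted. The GATA motif AGATAA was in the promoters of Stfa1 and Stfa3 and not in those of Stfa2 and Cst3, and 9.99% of all promoters held it. The KLF motif CACACCC was in those of Stfa2 and Stfa3 and not in those of Stfa1 and Cst3, and 6.93% of all promoters held it. Cst6 and Cstb were not among the 4 members matched in this table. In mm10 (GENCODE M21), Stfa1 lies at chr16:36276951-36285373 on the plus strand, Stfa2 at chr16:36403992-36408457 and Stfa3 at chr16:36450537-36455392, both on the minus strand. The Stfa1 and Stfa2 windows fall inside these gene models, which begin upstream of the RefSeq start sites used above. The Stfa3 window lies outside its model. Cstb lies at chr10:78425669-78427622 on the plus strand, Cst3 at chr2:148871722-148875692 and Cst6 at chr19:5344705-5349574, both on the minus strand. All 6 are protein-coding, and no member overlaps another annotated gene.

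Stfa3, an intracellular inhibitor of the stefin A group, had the highest mean of the members in every group except α6-negative cells. In cells after transfer its lowest, median and highest values were 0, 1313 and 20262 TPM, and its mean was 1989 TPM. Reporter-positive cells had 0, 39.8 and 7629 TPM with a mean of 425.9 TPM, and CD44+ reporter-negative cells had 0, 698 and 5736 TPM with a mean of 1359 TPM. The median cell after transfer was thus far above the median reporter-positive cell, although the ranges overlapped. α6+ CD44-negative cells had 0, 647 and 7723 TPM with a mean of 1071 TPM, and α6-negative cells had 0, 0 and 5572 TPM with a mean of 275.2 TPM. Stfa3 was detected in 92.7% of cells after transfer (95% exact Clopper-Pearson interval 87.8 to 96.03), 77.1% of reporter-positive cells (67.9 to 84.8), 60% of CD44+ reporter-negative cells (32.3 to 83.7), 94.5% of α6+ CD44-negative cells (87.6 to 98.2) and 39.5% of α6-negative cells (24.98 to 55.6). These and all later intervals cover counting error over cells only. Values of 1000 TPM or more were found in 57.1% of cells after transfer, 11.4% of reporter-positive, 26.7% of CD44+ reporter-negative, 37.4% of α6+ CD44-negative and 6.98% of α6-negative cells. The reporter-positive gate thus detected Stfa3 in most cells, but mostly at low levels.

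Stfa1 had a similar order of medians. Cells after transfer had 0, 310 and 4606 TPM (lowest, median and highest) with a mean of 642 TPM. Reporter-positive cells had 0, 5.69 and 3284 TPM with a mean of 189.5 TPM, and CD44+ reporter-negative cells had 0, 136.03 and 6996 TPM with a mean of 634 TPM. The CD44+ reporter-negative mean rests mostly on 1 cell at 6996 TPM, since the next highest cell was at 973 TPM. α6+ CD44-negative cells had 0, 150.6 and 3862 TPM with a mean of 454.2 TPM, and α6-negative cells had 0, 0 and 1079 TPM with a mean of 70.8 TPM. Stfa1 was detected in 90.4% (85.1 to 94.3), 54.3% (44.3 to 64.04), 60% (32.3 to 83.7), 90.1% (82.1 to 95.4) and 25.6% (13.5 to 41.2) of the cells after transfer, reporter-positive, CD44+ reporter-negative, α6+ CD44-negative and α6-negative. Stfa1 went undetected in about as many reporter-positive cells as had it, but in few cells after transfer or α6+ CD44-negative cells. On plate CSC1, 19 of 71 compared wells differed in this call between repeat libraries, against 2 of 47 on OT2 and 5 of 41 on OT_B.

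Stfa2 was the rarest of the stefin A members and did not follow the other two. Its median was 0 TPM in every group. The highest cell reached 3727 TPM after transfer, 1988 TPM in reporter-positive, 49.99 TPM in CD44+ reporter-negative, 500.2 TPM in α6+ CD44-negative and 605 TPM in α6-negative cells. Means were 175.3, 84.5, 3.33, 18.3 and 14.1 TPM in the same groups, and Stfa2 was detected in 49.7%, 40%, 6.67%, 27.5% and 2.33% of cells. The single cell with Stfa2 among the 15 CD44+ reporter-negative cells, and the single one among the 43 α6-negative cells, made up those means. Stfa2 was thus most often detected in the 2 groups sorted on mCherry, one with the SBE reporter and one without it.

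**Figure D1:**
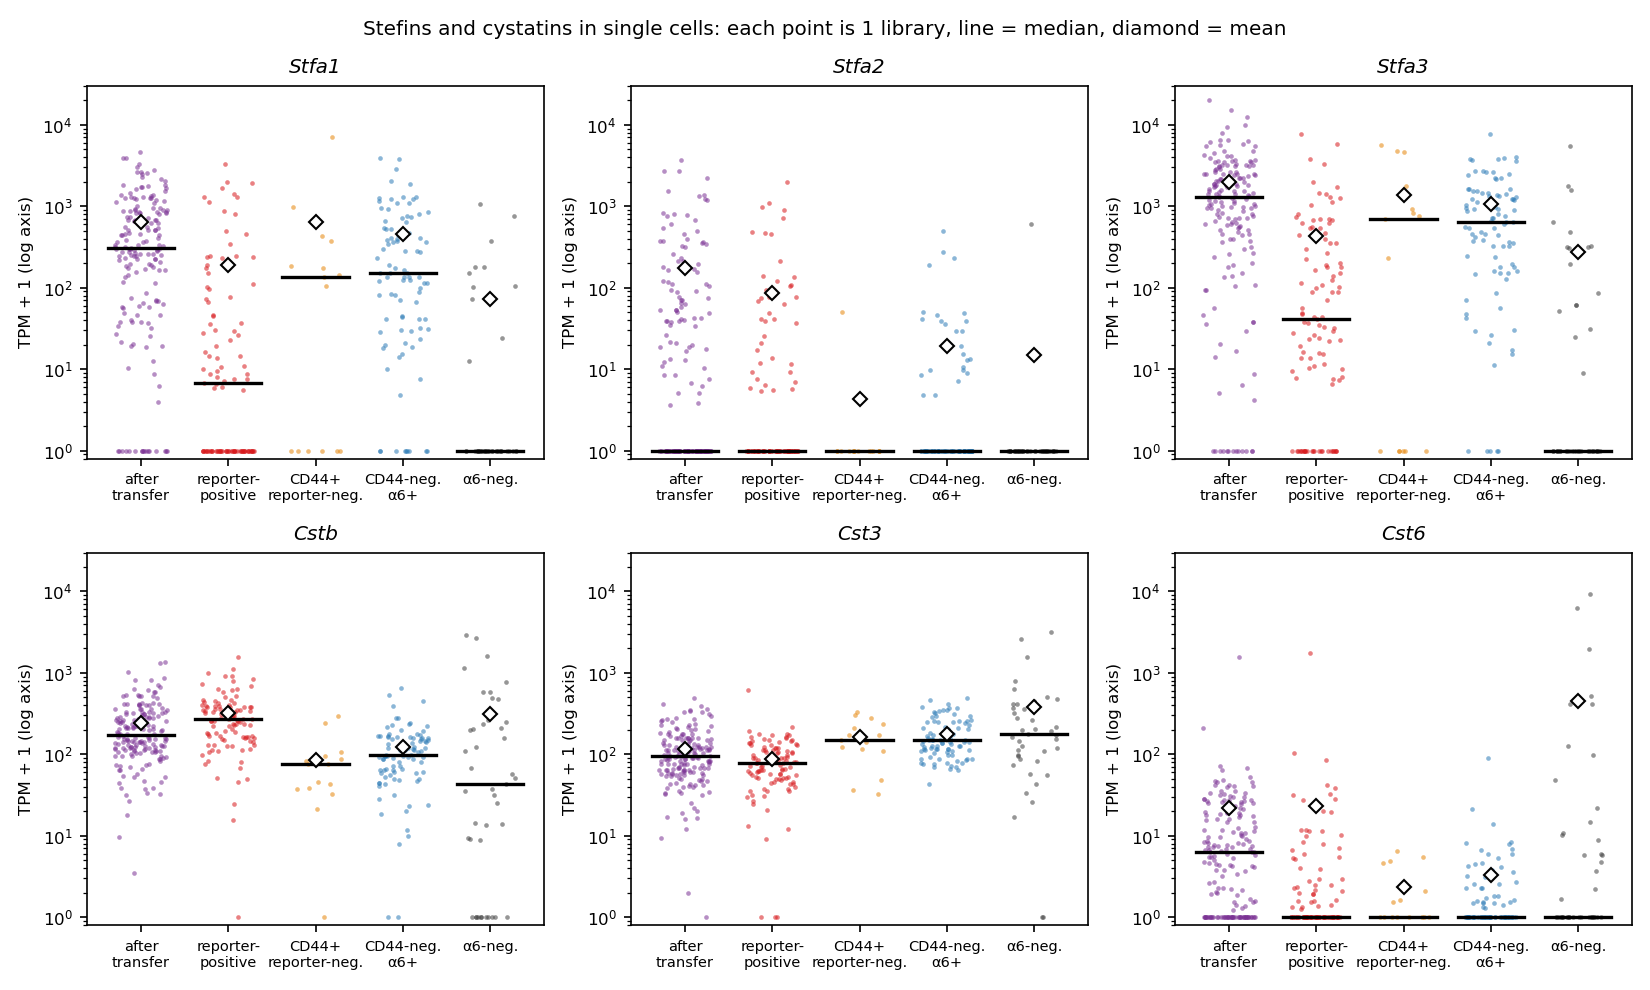
Each panel shows 1 gene, with TPM + 1 on a log axis in the 5 groups; each point is 1 cell, the line the median and the diamond the mean. Stfa1 and Stfa3 medians are low in reporter-positive cells (5.69 and 39.8 TPM) and high after transfer (310.1 and 1313 TPM), while Cst3 medians lie between 76.01 and 176.9 TPM in all groups.

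Stfa1, Stfa2 and Stfa3 lie among 7 further cystatin-family genes in a 335.4 kb stretch of chromosome 16, and the 10 genes together had a mean of 5389 TPM after transfer, 2208 TPM in reporter-positive, 3521 TPM in CD44+ reporter-negative, 3169 TPM in α6+ CD44-negative and 904 TPM in α6-negative cells. Medians were 4424, 215.01, 1760, 2207 and 0 TPM in the same groups. In 1 cell after transfer the cluster took 11.4% of the TPM outside ribosomal and spike-in rows. The largest contributor was BC100530, a predicted stefin A-like gene, with 44.8% of the summed TPM after transfer, 61.5% in reporter-positive and 48.4% in α6+ CD44-negative cells. Stfa1, Stfa2 and Stfa3 together gave 52.1%, 31.7% and 48.7% in these groups. Exact sequence sharing limits how reads can be assigned here, and was counted on the longest protein-coding transcript of each gene. Of the 31-base words of Stfa1, 50.4% also occur in another gene, mostly in BC100530, and of those of Stfa2, 33.3%, mostly in Stfa2l1. BC100530 itself shared 66.9% of its words, 44.5% with Stfa1. Stfa3, Cstb and Cst3 shared none and Cst6 shared 0.741%, so among the members the levels of Stfa1 and Stfa2 are uncertain, as is that of BC100530. The sources used here do not say how ambiguous reads were shared out.

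**Figure D2:**
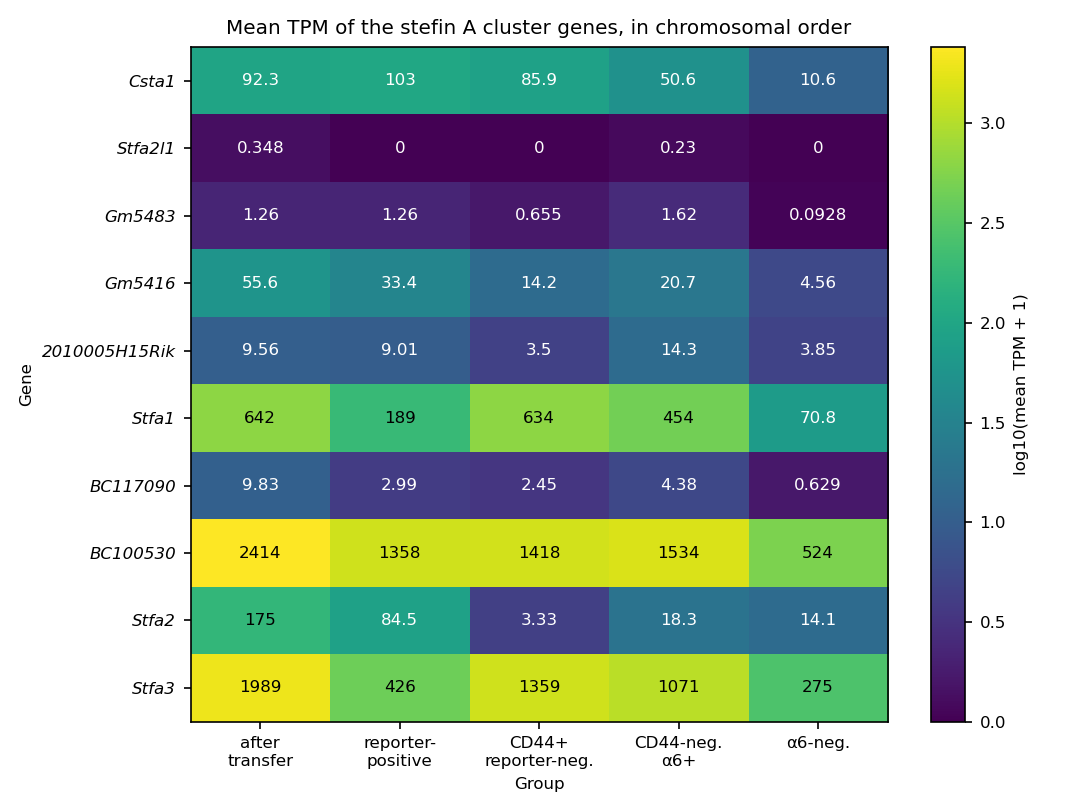
Mean TPM of the 10 genes of the stefin A cluster (down the page, in chromosomal order) in the 5 groups (across), with the colour on a log10 scale. BC100530 and Stfa3 carry most of the summed level, with means of 2414 and 1989 TPM after transfer and 1358 and 425.9 TPM in reporter-positive cells.

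Cstb, which encodes the ubiquitous intracellular inhibitor stefin B, was detected in over 90% of cells in every group but the α6-negative. Its lowest, median and highest values were 2.51, 172.7 and 1338 TPM after transfer, with a mean of 239.2 TPM, and 0, 266.8 and 1561 TPM in reporter-positive cells, with a mean of 318.5 TPM. CD44+ reporter-negative cells had 0, 75.5 and 297.7 TPM with a mean of 84.5 TPM, and α6+ CD44-negative cells had 0, 97.8 and 650 TPM with a mean of 123.2 TPM. The reporter-positive cells thus had the highest median of Cstb, whereas their medians of Stfa1 and Stfa3 were the lowest but for α6-negative cells. In α6-negative cells the values were 0, 41.8 and 2878 TPM with a mean of 310.6 TPM, of which 5 cells gave 68% of the sum. Cstb was detected in 100% of cells after transfer, 99.05% of reporter-positive, 93.3% of CD44+ reporter-negative, 97.8% of α6+ CD44-negative and 74.4% of α6-negative cells.

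Cst3, the broadly expressed secreted cystatin C, had a median of 76 TPM or more in every group. Its lowest, median and highest values were 0, 93.5 and 494.7 TPM after transfer, 0, 76.01 and 615 TPM in reporter-positive cells and 31.6, 147.6 and 326.7 TPM in CD44+ reporter-negative cells. α6+ CD44-negative cells had 42.04, 146.6 and 495.3 TPM, and α6-negative cells had 0, 176.9 and 3154 TPM. The medians of both mCherry-sorted groups were the lowest and that of α6-negative cells the highest. Means were 115.8, 87.5, 162.6, 175.98 and 375.1 TPM after transfer and in reporter-positive, CD44+ reporter-negative, α6+ CD44-negative and α6-negative cells. Every CD44+ reporter-negative and α6+ CD44-negative cell had Cst3, as did all 15 fibroblast-led α6-negative cells.

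Cst6, the secreted inhibitor of cathepsin L and legumain, was low in most cells and very high in a few. Its median was 5.22 TPM after transfer and 0 TPM in the other 4 groups. The highest cell reached 1550 TPM after transfer, 1755 TPM in reporter-positive, 5.55 TPM in CD44+ reporter-negative, 89.4 TPM in α6+ CD44-negative and 9335 TPM in α6-negative cells. Means were 20.7, 21.96, 1.32, 2.32 and 445.8 TPM in the same groups, but the highest 18, 11, 2, 10 and 5 cells gave 68.1%, 94.4%, 50.7%, 78.4% and 95.97% of the sums. Group means of Cst6 therefore describe a few cells. Cst6 was detected in 65.5% of cells after transfer, 34.3% of reporter-positive, 33.3% of CD44+ reporter-negative, 28.6% of α6+ CD44-negative and 46.5% of α6-negative cells. Its longest protein-coding transcript model has 3951 bases, and the longest models of the other members have at most 860 bases. Its smallest value above 0 was 0.21 TPM, against 0.98 to 3.16 TPM for them. Whether transcript length bears on these smallest values was not tested. In 39 cells Cst6 lay above 0 and below the 1 TPM used for detection.

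The 3 α6-negative cells with the highest Cst6 were also high in Cstb and had no stefin A transcript. They had 9335, 6160 and 1975 TPM of Cst6 and 2878, 1614 and 2694 TPM of Cstb, with Stfa1, Stfa2 and Stfa3 at 0 TPM. The same cells had 5979, 1317 and 5785 TPM of Krt79, a keratin of the hair follicle canal and sebaceous duct, and 16326, 15212 and 10234 TPM of the beta-defensin Defb6. The highest Cst6 cell after transfer had 1550 TPM of Cst6, 1018 TPM of Cstb, 939 TPM of Krt79 and no stefin A transcript. The highest reporter-positive cell differed from these, with 1755 TPM of Cst6 beside 1997 TPM of Stfa1 and 1312 TPM of Stfa3.

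Fold differences between groups are ratios of the mean TPM + 1 on the log2 scale, with 2-fold as the size named. Between cells after transfer and reporter-positive cells, 3 members were at least 2-fold higher and none was at least 2-fold lower, where 3.17% of all genes tested were higher and 8.6% lower. The log2 ratio was 1.75 for Stfa1, 1.04 for Stfa2 and 2.22 for Stfa3, against 0.40 for Cst3, −0.08 for Cst6 and −0.41 for Cstb. The members' median was 0.72 and that of all genes −0.22. With all libraries grouped as labelled the ratios were 1.40, 0.69 and 1.87 for Stfa1, Stfa2 and Stfa3, so Stfa2 no longer reached 2-fold, and with OT1 and OT_A in place of OT_B and OT2 it was 0.75. The Cst6 ratio turned on plates and single cells, at −1.56 without plate CSC1, 2.15 without plate CSC2 and 1.05 without the highest cell of each group, and it was 1.45 when TPM were rescaled without ribosomal and spike-in rows. By plate, mean Stfa1 was 753 and 534.5 TPM on OT2 and OT_B, against 137.4 and 308.2 TPM on CSC1 and CSC2. Mean Stfa3 was 2076 and 1905 TPM on OT2 and OT_B, against 264.9 and 793 TPM on CSC1 and CSC2. OT2 and OT_B thus lay above both reporter-positive plates for these genes. On the repeat plates OT1 and OT_A, mean Stfa1 was 231.7 and 889 TPM, so OT1 lay below CSC2. Mean Stfa3 there was 969 and 2771 TPM, above both reporter-positive plates.

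Between cells after transfer and α6+ CD44-negative cells, 2 members were at least 2-fold higher and none lower, beside 3.91% of genes higher and 4.71% lower. Stfa2 had a log2 ratio of 3.19 and Cst6 of 2.71. Cstb had 0.95, Stfa3 0.89, Stfa1 0.50 and Cst3 −0.60. With all libraries grouped as labelled, Cstb was past 2-fold as well. The members' median was 0.92 and that of all genes −0.13. This and the comparison before it share the cells after transfer, so their ratios are given only side by side.

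Between reporter-positive and α6+ CD44-negative cells, 3 members were at least 2-fold higher and 2 lower, beside 9.8% of genes higher and 4.78% lower. Stfa2, Cstb and Cst6 were higher, with log2 ratios of 2.15, 1.36 and 2.79. Stfa1 and Stfa3 were lower, at −1.26 and −1.33, and Cst3 at −0.9995 was just short of 2-fold. The members' median was 0.18 and that of all genes 0.07. The Cst6 ratio was 0.56 without plate CSC2, and those of Stfa1 and Stfa3 were −0.56 and −0.43 without plate CSC1. In libraries with 3000 to 6000 genes, which leaves 6 reporter-positive and 13 α6+ CD44-negative cells, the Stfa1 ratio turned to 3.98. By plate, mean Stfa1 was 137.4 and 308.2 TPM on CSC1 and CSC2, against 454.2 TPM in all α6+ CD44-negative cells and 192.04 TPM in those with Y-linked transcripts alone, so plate CSC2 lay below the first value and above the second. Against the Y-linked cells the Stfa1 ratio was −0.02. Mean Stfa3 was 264.9 and 793 TPM on CSC1 and CSC2, against 1071 TPM in all α6+ CD44-negative cells and 955 TPM in the Y-linked ones.

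Between reporter-positive cells and the CD44+ cells without reporter, which differ in mCherry and CD34, 3 members were at least 2-fold higher and 2 lower, beside 12.6% of genes higher and 16.5% lower. These gates also differed in sex-linked transcripts, since 94.3% of reporter-positive cells had Y-linked transcripts alone and no CD44+ reporter-negative cell did, so the gate and the sex or animal cannot be told apart. Stfa2, Cst6 and Cstb were higher, with log2 ratios of 4.30, 3.31 and 1.90, and Stfa1, Stfa3 and Cst3 had −1.74, −1.67 and −0.89. The members' median was 0.51 and that of all genes −0.03. Rescaled without ribosomal and spike-in rows, the Cst3 ratio was −1.10. Without the highest cell of each group the Stfa1 ratio was −0.17 and that of Cst6 was 1.64. The Cst6 ratio was 1.08 without plate CSC2 and 0.42 as a difference of mean log2 values, and Cst6 was detected in 34.3% and 33.3% of these cells. Between CD44+ reporter-negative and α6+ CD44-negative cells no member was at least 2-fold higher and 1 was lower, beside 16.8% of genes higher and 6.18% lower. That gene was Stfa2, at −2.16, and the other ratios lay between −0.54 and 0.48, with the members' median at −0.32 and that of all genes at 0.09. The Stfa1 ratio there was −1.21 without the highest cell of each group, and 1.72 against the α6+ CD44-negative cells with Y-linked transcripts alone.

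Between α6+ CD44-negative and α6-negative cells, 2 members were at least 2-fold higher and 3 lower, beside 8.66% of genes higher and 25.7% lower. Stfa1 and Stfa3 were higher, with log2 ratios of 2.67 and 1.96, and Cst3, Cstb and Cst6 were lower, at −1.09, −1.33 and −7.07. The members' median was −0.36 and that of all genes −0.31. In keratinocyte-led cells alone the ratios were 1.95, 1.26, −1.57, −2.02 and −7.80 for these genes in the same order. With means taken over log2 values of single cells, the Cstb ratio turned to 1.28 and that of Cst3 was −0.02. Without the highest cell of each group the Stfa2 ratio was 3.80, against 0.36 with it.

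**Figure D3:**
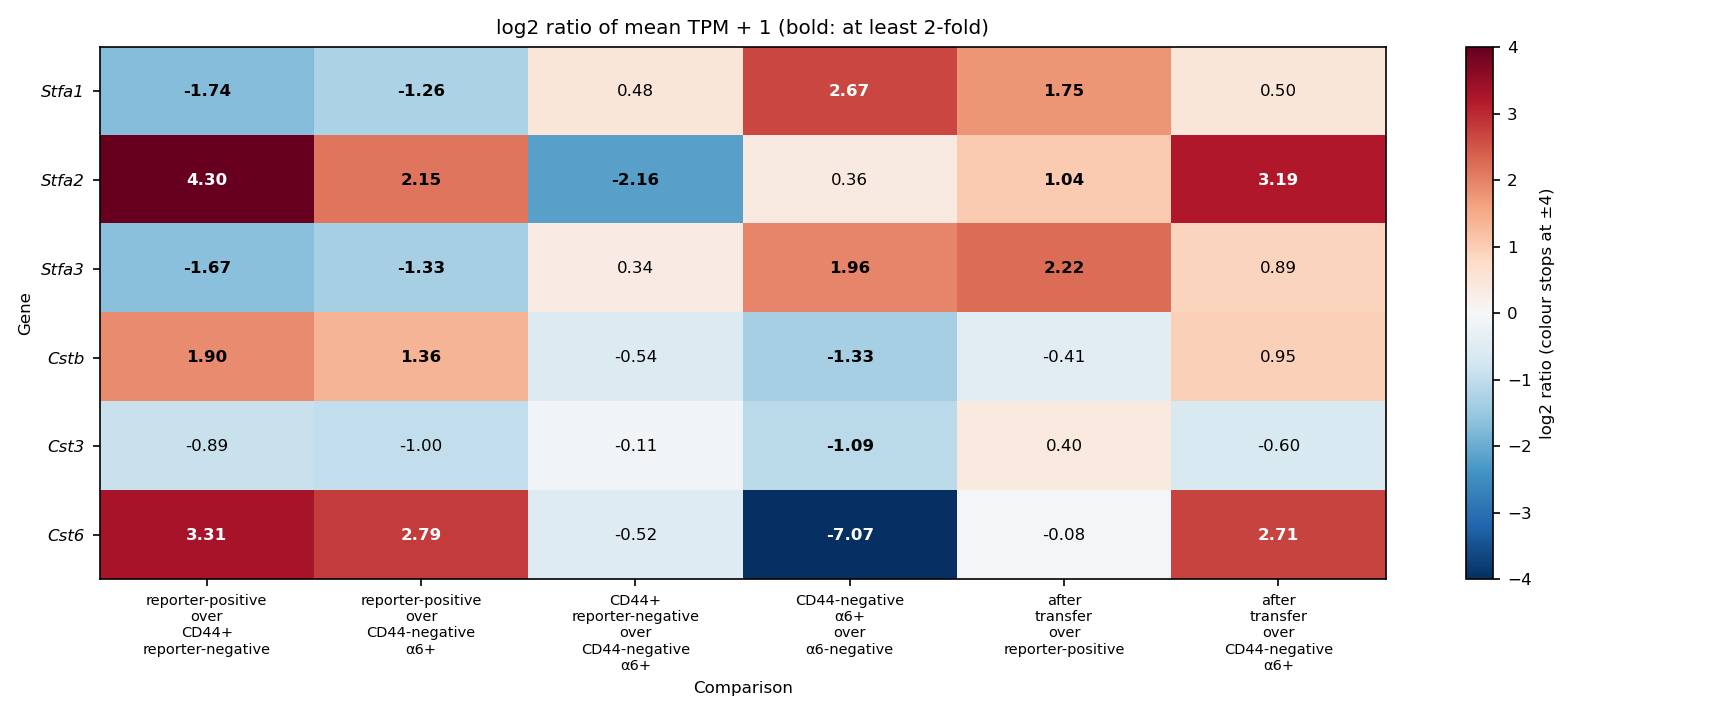
Log2 ratio of mean TPM + 1 for each of the 6 genes (down the page) in the 6 comparisons (across), with values of at least 2-fold in bold and the colour ending at 4 on either side. Stfa1 and Stfa3 are positive after transfer over reporter-positive cells (1.75 and 2.22) and negative in reporter-positive over α6+ CD44-negative cells (−1.26 and −1.33), where Stfa2, Cstb and Cst6 are positive.

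Markers of other cell types moved with some of these values. Among α6-negative cells, the 26 led by keratinocyte markers had means of 526.2 TPM Cst3, 503.05 TPM Cstb, 737 TPM Cst6, 446.7 TPM Stfa3 and 116.6 TPM Stfa1. The 15 led by fibroblast markers had 160.5, 17.9, 0.0793, 14.7 and 0.783 TPM of these genes. Of the members, Cst3 alone had a mean in fibroblast-led cells within the range of the means of the other 4 gates. Of 10 neutrophil markers, listed because stefin A genes are known from neutrophils, Ltf, Camp, Retnlg and Elane were at 0 TPM in every group. Cxcr2 had the highest mean of these markers in every group, up to 2.67 TPM after transfer. Their median summed level was 0.59, 0.81, 0.75, 0.17 and 0 TPM after transfer and in reporter-positive, CD44+ reporter-negative, α6+ CD44-negative and α6-negative cells. Summed levels in the highest cell were 48.58, 32.07, 3.17, 11.76 and 39.43 TPM in the same groups.

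Within the α6+ CD44-negative gate, the 42 cells with Xist alone had a mean of 681 TPM of Stfa1 and a median of 421.2 TPM, and the 44 cells with Y-linked transcripts alone had a mean of 192.04 TPM and a median of 93.4 TPM. Mean Stfa3 was 1215 and 955 TPM, mean Stfa2 12.2 and 26.01 TPM, mean Cstb 97.4 and 133.2 TPM and mean Cst3 153.1 and 192.6 TPM in these cells. Stfa1 had the widest ratio of medians among the genes with a median above 0 in both. Since the reporter-positive cells and those after transfer held no cell with Xist alone, the ratios were repeated with the Y-linked α6+ CD44-negative cells only. Reporter-positive over these cells gave a log2 ratio of −0.02 for Stfa1 and −1.16 for Stfa3, and cells after transfer over them gave 1.74 for Stfa1 and 1.06 for Stfa3. The Stfa1 ratio of reporter-positive over CD44-negative cells was thus near 0 in that subset, while that of Stfa3 was past 2-fold. How many animals these cells came from is not named, so sex and animal cannot be told apart.

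Across all used cells, Stfa1 and Stfa3 moved together, with a Pearson correlation of 0.819 over log2(TPM + 1). These correlations are descriptions, since cells of 1 plate share their sort and handling. Stfa2 was less tied to them, with 0.411 to Stfa1 and 0.346 to Stfa3. Both Stfa1 and Stfa3 were detected in 71.5% of cells, Stfa3 without Stfa1 in 49 cells and Stfa1 without Stfa3 in 11 cells. Only 3 cells had Stfa2 without Stfa3, so Stfa2 was largely found inside the set of Stfa3-positive cells. Cstb and Cst6 had a correlation of 0.429 over all cells and 0.74 within the α6-negative cells, and Cst3 had between −0.26 and 0.09 with the other members.

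**Figure D4:**
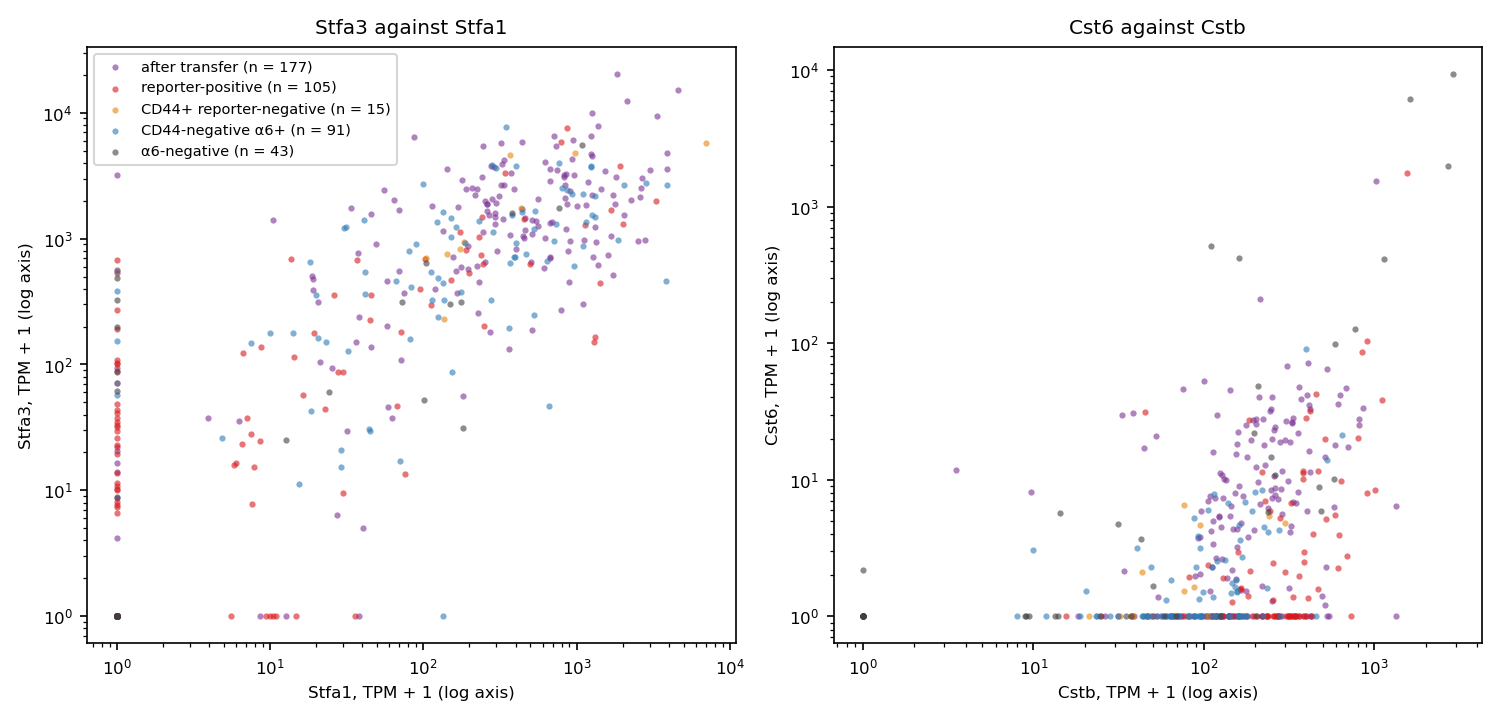
TPM + 1 on log axes of Stfa3 against Stfa1 and of Cst6 against Cstb, with each point 1 cell coloured by group. Stfa1 and Stfa3 lie along a diagonal (correlation 0.819), and the α6-negative cells reach the highest values of Cst6 and Cstb together (9335 and 2878 TPM).

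All 6 members were detected together in 41.8% of cells after transfer, 19.05% of reporter-positive, 6.67% of CD44+ reporter-negative, 7.69% of α6+ CD44-negative and 2.33% of α6-negative cells. No stefin A member was detected in 5.08%, 15.2%, 40%, 4.40% and 60.5% of these groups' cells. In keratinocyte-led cells alone the share was 25% of CD44+ reporter-negative and 42.3% of α6-negative cells. The 3 other CD44+ reporter-negative cells and 15 of the 17 other α6-negative cells had none. The median cell after transfer had 5 of the 6 members, the median α6-negative cell had 3, and the other groups had 4.

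The genes most alike were taken as the 5 with the highest correlation over all cells, among those detected in at least 10% of cells. For Stfa1 and Stfa3 the first was BC100530, at 0.816 and 0.88, of which the first value is between genes that share sequence, followed by 2610528A11Rik at 0.687 and 0.747 and Krtdap, a gene of differentiating keratinocytes, at 0.658 and 0.740. For Stfa2 the list was led by the calprotectin genes S100a8 at 0.658 and S100a9 at 0.637, then Gm5416 at 0.629, the cornified envelope gene Sprr2h at 0.603 and the connexin gene Gjb6 at 0.593. Stfa2 thus had other companions than Stfa1 and Stfa3, although the 3 promoters are alike. Cstb was most like S100a14 at 0.629, the desmosomal gene Perp at 0.610 and Sfn at 0.608, over cells that include the fibroblast- and pericyte-led ones. Within reporter-positive cells its 5 genes were Sh3bgrl3 at 0.738, Urah at 0.735, Rps23-ps1 at 0.713, Krt6a at 0.707 and Dbi at 0.692. None of them was among its 5 over all cells. Cst6 was most like Ly6g6c at 0.683, the suprabasal gene Sbsn at 0.675 and Dgat2, which makes triglycerides, at 0.668. Cst3 had no close companion over all cells, with its highest value at 0.467 for the ribosomal protein gene Rpl21. Within α6-negative cells its highest value was 0.676, for Rpl23. For Stfa1, Stfa2, Stfa3 and Cst6 the first gene was the same within the group of highest mean as over all cells.

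Against the mean of 22 genes of terminal keratinocyte differentiation, Cst6 correlated at 0.73, Stfa2 at 0.56, Stfa3 at 0.55, Cstb at 0.50 and Stfa1 at 0.47 over all used cells, and Cst3 at −0.05. Within α6+ CD44-negative cells the values for Cst6, Stfa2, Stfa3, Cstb and Stfa1 were 0.62, 0.33, 0.36, 0.35 and 0.23. They were 0.80, 0.56, 0.52, 0.38 and 0.46 after transfer and 0.79, 0.69, 0.54, 0.51 and 0.47 in reporter-positive cells. Every cell of these groups was led by keratinocyte markers. In cells after transfer over α6+ CD44-negative cells, 12 of 17 tested genes of that differentiation list were at least 2-fold higher and none lower. Of all genes, 3.91% were higher and 4.71% lower there. In cells after transfer over reporter-positive cells 6 of 18 were higher, up to 4.87 for Krt10, and 4 were lower, down to −1.51 for Ivl. The shares of all genes were 3.17% higher and 8.6% lower. In reporter-positive over α6+ CD44-negative cells 7 of 16 were higher and 3 lower, from 5.38 for Cnfn to −3.93 for Krt10. Beside these, 9.8% of all genes were higher and 4.78% lower. Stfa1 and Stfa3 thus lay on the side of Krt10 in both comparisons with reporter-positive cells. Stfa2, Cstb and Cst6 lay on the side of Cnfn in the last. Krt10 and Cnfn are extremes of a list that went both ways. Krtdap, at 1652 TPM in reporter-positive and 1078 TPM in α6+ CD44-negative cells, went against Stfa1 and Stfa3. Cnfn averaged 49.3 TPM after transfer and 107.2 TPM in reporter-positive cells, whereas Stfa2 was higher after transfer.

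Levels of proteases that these inhibitors act on are given next. Cathepsin L (Ctsl), which Cst6 and the stefins inhibit, averaged 33.02 TPM after transfer, 130.7 TPM in reporter-positive, 16.01 TPM in CD44+ reporter-negative, 22.7 TPM in α6+ CD44-negative and 52.8 TPM in α6-negative cells. Reporter-positive cells were thus highest in Ctsl, where Stfa1 and Stfa3 were low. The group means of Cstb, in contrast, fell in the same order as those of Ctsl. Over all used cells Ctsl had a correlation of −0.52 with Stfa3 and −0.44 with Stfa1. It was −0.35 with Cst6, −0.17 with Cst3, −0.13 with Stfa2 and 0.06 with Cstb. Within the groups the correlation was −0.58, −0.51, −0.47, −0.20 and −0.53 with Stfa3 and −0.39, −0.47, −0.42, 0.03 and −0.54 with Stfa1 after transfer and in reporter-positive, CD44+ reporter-negative, α6+ CD44-negative and α6-negative cells. It was thus near 0 for Stfa1 in the α6+ CD44-negative cells. Cathepsin B (Ctsb) averaged 49.4, 54.3, 51.9, 58.2 and 73.5 TPM after transfer and in reporter-positive, CD44+ reporter-negative, α6+ CD44-negative and α6-negative cells, with no ratio past 2-fold in the 6 comparisons. Cathepsin C (Ctsc) had the highest mean of the listed cysteine cathepsins over all used cells, at 107.6 TPM. It averaged 100.7, 121.7, 79.9, 131.5 and 60.7 TPM in the same groups. Unlike Ctsl, it was thus highest in α6+ CD44-negative cells.

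The 12 listed genes, cysteine cathepsins and legumain, had at most 1 higher and 4 lower gene of at least 2-fold in a comparison. In cells after transfer over reporter-positive cells, none of 7 tested was higher and 3 were lower, led by Ctsl at −1.95, and the list's median was −0.37, beside 8.6% of all genes lower. In cells after transfer over α6+ CD44-negative cells, none of 8 was higher and 2 were lower, Ctsz at −1.37 and the legumain gene Lgmn at −1.35, beside 4.71% of all genes lower. In reporter-positive over α6+ CD44-negative cells, 1 of 8 was higher, Ctsl at 2.47, and none was lower, with the list's median at −0.01, beside 9.8% of all genes higher. In reporter-positive over CD44+ reporter-negative cells, 1 of 9 was higher, Ctsl at 2.95, and 2 were lower, Ctsk at −2.97 and Lgmn at −1.21, beside 12.6% and 16.5% of all genes. In CD44+ reporter-negative over α6+ CD44-negative cells 1 of 9 was higher, Ctsk at 3.14, beside 16.8% of all genes. In α6+ CD44-negative over α6-negative cells 1 of 9 was higher, Ctsc at 1.10, and 4 were lower, led by Ctsk at −5.65, beside 8.66% and 25.7% of all genes. Ctsk, known from osteoclasts and fibroblasts, was detected in 34.9% of α6-negative cells and in no α6+ CD44-negative cell.

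Among 21 other cystatin-family genes in the tables, the 3 with the highest mean over all used cells were BC100530, Csta1 and Gm5416 of the chromosome 16 cluster, while Stfa2l1 of the same cluster was at 0 TPM in 3 groups. Csta1 averaged 92.3 TPM after transfer, 102.7 TPM in reporter-positive, 85.9 TPM in CD44+ reporter-negative, 50.6 TPM in α6+ CD44-negative and 10.6 TPM in α6-negative cells. In α6+ CD44-negative over α6-negative cells, 6 of 8 tested were at least 2-fold higher and 1 was lower, beside 8.66% and 25.7% of all genes. In cells after transfer over reporter-positive cells, 2 of 7 were higher and none lower, beside 3.17% and 8.6% of all genes. BC100530 was at 0.83 there, below the ratios of Stfa1, Stfa2 and Stfa3. In reporter-positive over α6+ CD44-negative cells, 1 of 7 was higher, Csta1 at 1.01, and 1 lower, beside 9.8% and 4.78% of all genes. BC100530 had −0.17 in that comparison. The mean of BC100530 in reporter-positive cells includes 1 cell at 27292 TPM, and its median there was 176.2 TPM, against 1284 TPM in α6+ CD44-negative cells. By medians BC100530 was therefore low in reporter-positive cells, as Stfa1 and Stfa3 were.

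The repeat libraries give the technical spread of a single value. Of the wells with 2 libraries, 71 of 72 on CSC1, 47 of 71 on OT2 and 41 of 68 on OT_B were mutual best matches. So were 29 of 30 on CSC2 and 14 of 15 on the CD44+ reporter-negative plate. At least 22 libraries of OT_A and 14 of OT1 instead had their mutual best match in a different well. Only the same-well mutual best matches are used below, so these pairs were selected for agreeing. Over all of them the correlation of log2 values was 0.927 for Stfa1, 0.877 for Stfa2, 0.960 for Stfa3, 0.906 for Cstb, 0.813 for Cst3 and 0.958 for Cst6. In wells where both libraries had the gene, the median size of the log2 difference was 0.54 for Stfa1, 0.54 for Stfa2, 0.40 for Stfa3, 0.22 for Cstb, 0.31 for Cst3 and 0.35 for Cst6. Cstb and Cst3 were called the same, detected or not, in 99.01% of wells each, Stfa3 in 94.6%, Cst6 in 90.1%, Stfa1 in 85.6% and Stfa2 in 85.1%. Stfa1 and Stfa2 detection was thus the least repeatable, and the largest Stfa1 value whose repeat missed the gene was 222.6 TPM. Levels also differed between repeats: in the 41 wells of the pair OT1 and OT_B, Stfa1 averaged 268.8 TPM in OT1 and 529.9 TPM in OT_B, whereas Cstb averaged 149.9 and 158.5 TPM.

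**Figure D5:**
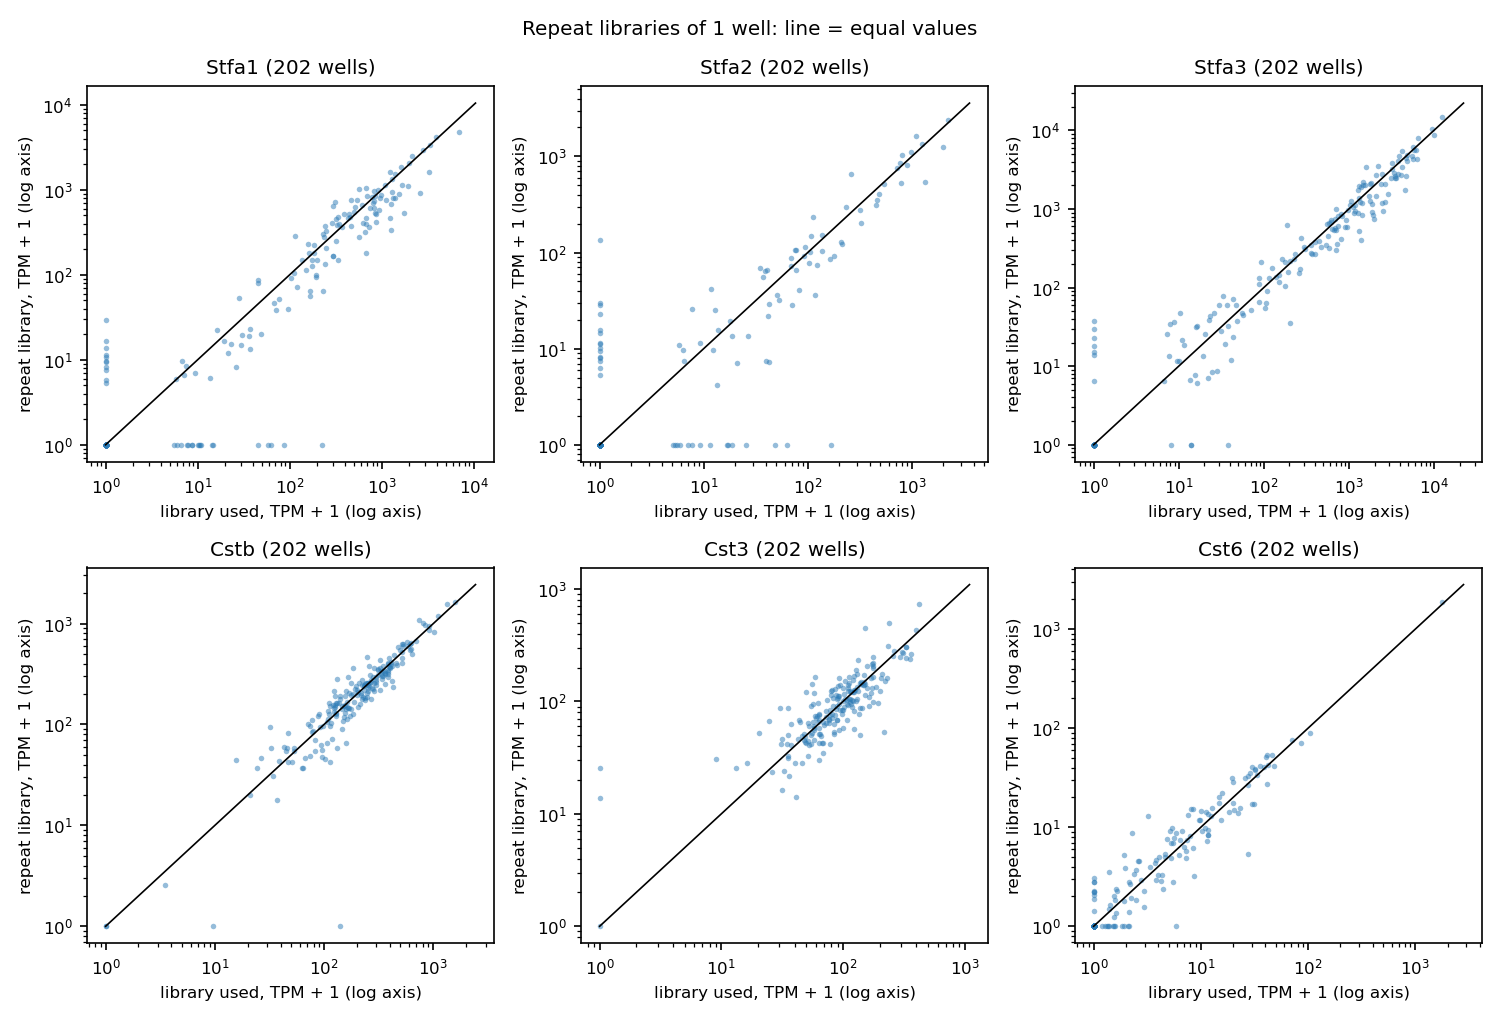
Each point is 1 well with 2 libraries, with TPM + 1 on log axes in the library used (across) and in its repeat (up), and the line marks equal values. Only wells whose 2 libraries were mutual best matches are shown. Where both libraries had the gene, the median size of their log2 difference was 0.40 for Stfa3 (correlation 0.960) and 0.31 for Cst3 (0.813), whose values span a narrower range, and points along the axes are wells where 1 of the 2 libraries missed the gene.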

How the data were processed

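Single-cell TPM were deposited by the authors in 2 tables of 46517 genes and 92 spike-ins. The submitters' processing notes name Bowtie2 2.2.9, RSEM 1.2.30 and the build mm10, and the sources used here do not say how multiply mapped reads were treated. TPM keep no depth, so no count model was used. Groups were taken from the labels. Libraries needed 2000 genes at 1 TPM or more, and repeat plates were left out. A member is called detected at 1 TPM. Folds are ratios of mean TPM + 1, named from 2-fold, over genes with a mean of 1 TPM or more in either group. The members and lists were chosen with earlier results of these data known. Named genes were all 6 members, in each comparison the list genes with the highest and lowest fold, the 3 highest genes of a list, and the 5 genes most alike to each member; Lgmn, Krt79 and Defb6 and the fold of BC100530 were named after their values were seen. The scripts were tested on simulated data. Analyses used python 3.11.15, numpy 2.4.6, pandas 2.3.3, scipy 1.17.1 and matplotlib 3.10.9. Alternatives covered the gene minimum, pseudocount, scaling, plates, cell types and repeat libraries, and 4 more (sex-linked transcripts in both directions, the highest cells, matching wells within a plate) were chosen after seeing the data.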

Additional observations from a re-analysis of the deposited data

How the results depend on the processing

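Over all alternatives, 573 log2 ratios of single members kept their 2-fold call (higher, lower or under 2-fold). Of the others, 71 changed call without counting as reversed, and 4 ratios past 2-fold changed sign and were counted as reversed. Ratios under 2-fold could change sign without being counted as reversed. That of Stfa1 in CD44+ reporter-negative over α6+ CD44-negative cells was 0.48 and ran from −1.76 to 3.03. Restricting the data to libraries with 3000 to 6000 genes, which left 44, 6, 3, 13 and 22 libraries after transfer and in reporter-positive, CD44+ reporter-negative, α6+ CD44-negative and α6-negative cells, reversed 3 Stfa1 ratios. They became 0.95 for reporter-positive over CD44+ reporter-negative, 3.98 for reporter-positive over α6+ CD44-negative and −2.15 for α6+ CD44-negative over α6-negative cells. The fourth was Cstb in α6+ CD44-negative over α6-negative cells, at 1.28 with the difference of mean log2 values.

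Of the counts of members past 2-fold, 19 moved by more than 1.5 times under an alternative, as follows, and the cause was not tested. With 3000 to 6000 genes, the count lower in reporter-positive over CD44+ reporter-negative cells was 1 and in reporter-positive over α6+ CD44-negative cells 1. In CD44+ reporter-negative over α6+ CD44-negative cells it was then 1 higher and 2 lower, in α6+ CD44-negative over α6-negative cells 0 higher, and in cells after transfer over α6+ CD44-negative cells 5 higher and 1 lower. Without plate CSC1, reporter-positive cells had 1 lower member against either α6+ group, and cells after transfer over reporter-positive cells had 1 lower (Cst6), as they did without plate OT_B. With the mean of log2 values, 2 members (Stfa1 and Stfa3) were lower in CD44+ reporter-negative over α6+ CD44-negative cells, and 4 were higher and 1 lower in α6+ CD44-negative over α6-negative cells. With no minimum on genes, the last of these also had 1 lower. Without the highest cells, 1 member was lower in reporter-positive over CD44+ reporter-negative cells and 2 in CD44+ reporter-negative over α6+ CD44-negative cells. With Y-linked α6+ CD44-negative cells only, 1 member was higher in CD44+ reporter-negative over them and 4 in cells after transfer over them. Rescaling without spike-in and ribosomal rows shifted the median of all genes by −0.18 in reporter-positive over CD44+ reporter-negative cells, −0.11 in α6+ CD44-negative over α6-negative cells and 0.11 after transfer over reporter-positive cells, and changed no count of members by more than 1.5 times, though it added Cst3 to the lower members in both reporter-positive comparisons with cells before transfer, Cst6 to the higher ones after transfer over reporter-positive cells and Cstb to those after transfer over α6+ CD44-negative cells.

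No paired analysis was possible because the results come from no test and the replicate numbers only name cells. TPM hold no depth, so a 0 is a value listed at 0 and no limit can be put on it. The share of all genes past 2-fold was lower in all 6 comparisons when every gene above 0 was tested.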
